A study of Mus musculus with 17 samples.

Results

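Genes that handle phosphate and pyrophosphate during bone mineralization were followed across sorted bone stromal cells of mice with and without a gain-of-function Cxcr4 allele. The members were the 7 listed genes Alpl, Phospho1, Enpp1, Ank, Slc20a1, Slc20a2 and Smpd3, found by symbol among the 55335 genes of the count files, and all 7 had counts. Bulk RNA sequencing covered 17 libraries in 6 groups: osteoprogenitor cells (OPCs) and skeletal stromal/stem cells (SSCs) of WT (Cxcr4+/+), +/1013 (Cxcr4+/1013) and 1013/1013 (Cxcr41013/1013) mice, with 3 libraries a group except 2 for 1013/1013 SSCs. The 1013 allele is a knock-in that truncates the tail of the chemokine receptor CXCR4, as in WHIM syndrome. Both cell types were CD45-, TER119-, CD31- and CD51+ cells sorted from the bone fraction of age-matched young adult female littermates, with SSCs gated as Sca-1+ PDGFRα+ and OPCs as Sca-1- with or without PDGFRα. Each library pooled several mice, and the labels name no treatment for any group. The allele is in the germ line, so the blood, immune and bone cells of the mutant mice carried it too.

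Mineral forms where inorganic phosphate is plentiful and pyrophosphate, its inhibitor, is scarce. Tissue-nonspecific alkaline phosphatase (Alpl) hydrolyses pyrophosphate outside the cell, while Enpp1 makes it from nucleotides and Ank allows it, or the ATP it is made from, to leave the cell. Phospho1 releases phosphate from phosphocholine inside matrix vesicles, Smpd3 (neutral sphingomyelinase) supplies that phosphocholine from sphingomyelin, and Slc20a1 and Slc20a2 (Pit1 and Pit2) are sodium-phosphate cotransporters.

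OPC libraries held 64099849 to 92683497 counts on genes and SSC libraries 44217695 to 50509592. Levels are given as CPM, a gene's counts per 1000000 counts of its library, with library sizes scaled by TMM factors over all 17 libraries. They covered the RNA of a pool, so fewer cells of a type and less RNA per cell cannot be told apart. Sca-1 (Ly6a) was at 386 to 1450 CPM in SSCs and 0.569 to 12.4 CPM in OPCs, as gated. The 7 osteoblast markers summed to 171234 to 533578 CPM in OPCs and 5547 to 21380 CPM in SSCs. The 7 chondrocyte markers, among them Col2a1, summed to 12743 to 92280 CPM in OPCs, so the OPC gate also held chondrocyte RNA, and to 48.8 to 4137 CPM in SSCs. The library of 1013/1013 SSC replicate 1 stood apart: 15748 genes had a count in it, against 17808 to 22599 in the other SSC libraries. Results that rest on it are given with and without it.

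The largest differences among the 7 genes lay between the cell types. Alpl, Phospho1 and Smpd3 were lower in SSCs than in OPCs in each genotype, Slc20a1 was higher in WT SSCs, and for Enpp1, Ank and Slc20a2 no difference was called. Calls required a change of at least 1.5-fold with a Benjamini-Hochberg adjusted p, over all genes tested by edgeR's quasi-likelihood method, under 0.05. In WT, 4 of 7 members were called, where 11.4% of the 20238 genes tested were. Of these, 3 were lower in SSCs (background 5.86%) and 1 was higher (5.55%). In +/1013 mice, 3 of 7 were called (12.5% of all genes), all lower in SSCs (6.02% of genes were called lower and 6.44% higher). In 1013/1013 mice, 3 of 7 were called (13.1%), again all lower (6.12% lower and 6.94% higher). Across all genotypes, the 9 OPC libraries lay above the 8 SSC libraries without overlap for 3 members, where 5.16% of genes did so, and for no member did SSCs lie above OPCs (5.71% of genes). Without 1013/1013 SSC replicate 1 the count was 4 of 7 in WT (11.7% of all genes), 4 in +/1013 (13.1%) and 1 in 1013/1013 (4.84%). With the replicate number as a block, 3 of 7 were called in WT (10.1%).

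**Figure D1:**
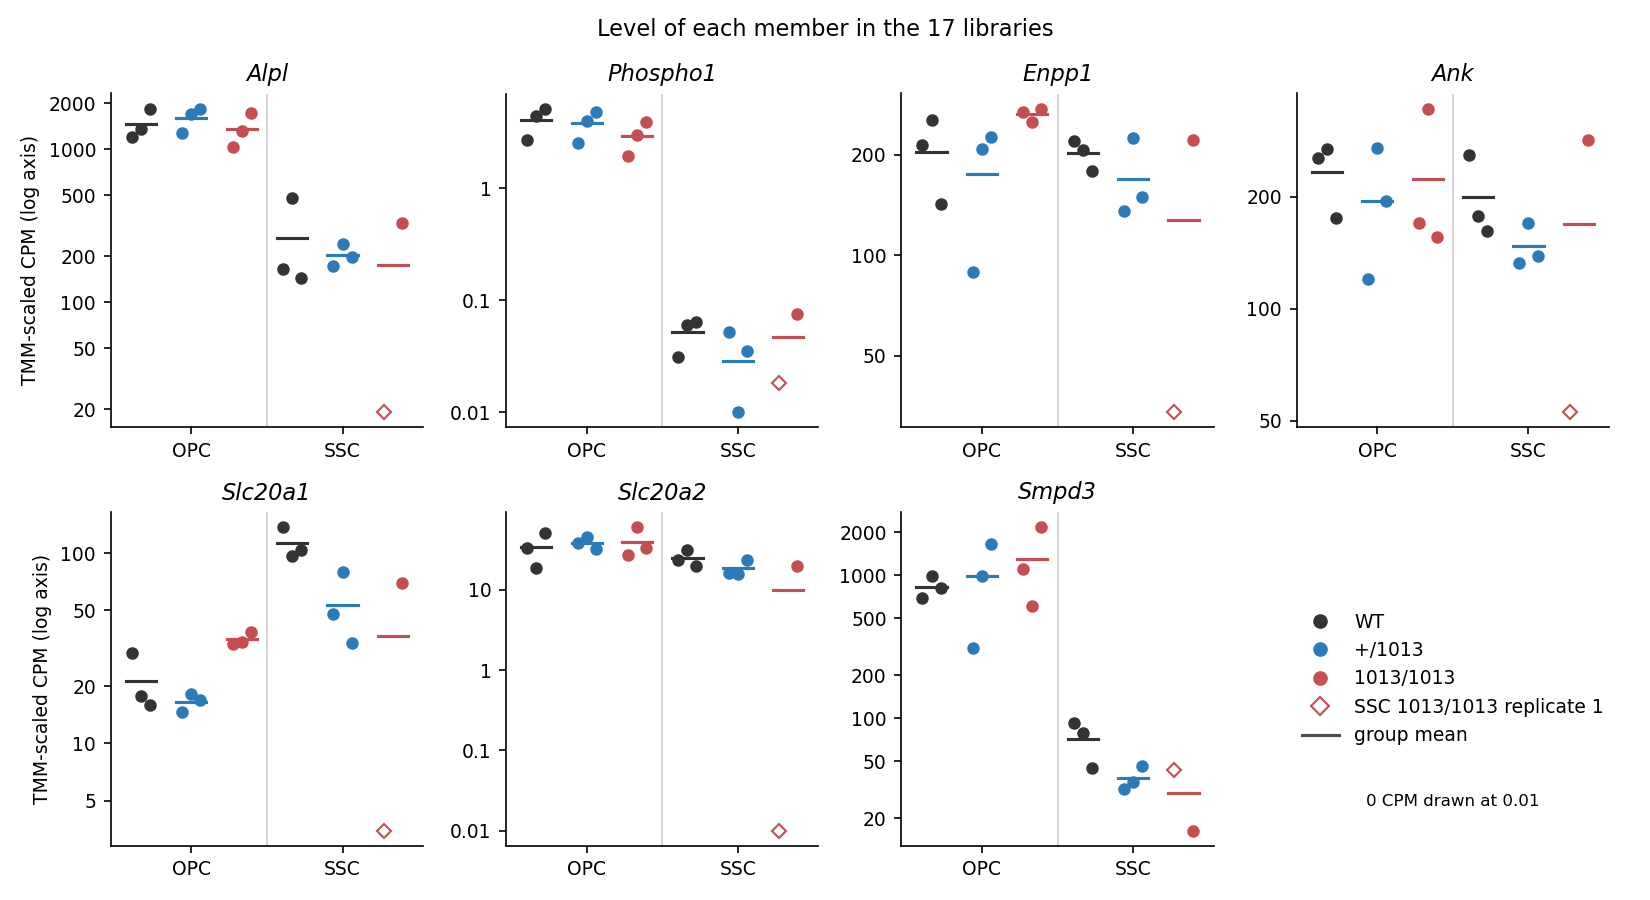
Level of each member in the 17 libraries, in TMM-scaled CPM on a log axis, with 1 point per library, bars at group means and the 1013/1013 SSC replicate 1 as an open diamond. All 9 OPC points lie above the 8 SSC points for Alpl, Phospho1 and Smpd3, and the open diamond is the lowest of the 17 points for Alpl, Enpp1, Ank, Slc20a1 and Slc20a2.

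Alpl (ENSMUSG00000028766) lies on the minus strand at chr4:137741733-137796384 (mm10), and none of its exon bases are shared with another annotated gene. Its OPC levels were 1212, 1364 and 1841 CPM in the WT replicates 1 to 3, 1272, 1698 and 1847 CPM in +/1013 and 1031, 1328 and 1737 CPM in 1013/1013. Its SSC levels were 166, 477 and 144 CPM in WT, 173, 239.7 and 198 CPM in +/1013 and 19.1 and 332 CPM in the 2 libraries of 1013/1013. The lowest OPC library was thus above the highest SSC library, and the 3 genotypes overlapped within each cell type. The group means were 1472 ± 329 (SD, n = 3) CPM in WT OPCs and 262 ± 186 (SD, n = 3) CPM in WT SSCs. The log2 fold change of SSCs over OPCs was −2.49 ± 0.72 (SE) in WT, a 5.61-fold lower level (adjusted p = 0.0396). It was −2.98 ± 0.735 in +/1013 (adjusted p = 0.0169) and −2.96 ± 0.865 in 1013/1013 (adjusted p = 0.038). The WT call was lost without WT OPC replicate 2 (adjusted p = 0.0796) or 3 (0.1001) and without WT SSC replicate 1 (0.137) or 3 (0.130), with log2 fold changes of −2.53 to −2.19. The +/1013 call was lost without any 1 of its 3 SSC libraries (adjusted p = 0.0519 to 0.0687, log2 fold changes −3.11 to −2.87). The 1013/1013 call was lost without any 1 of its 3 OPC libraries (0.0508 to 0.0851, −3.13 to −2.73) and without SSC replicate 1 (0.093, −2.04).

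Phospho1 (ENSMUSG00000050860, plus strand, chr11:95824499-95832140) was the scarcest member. Of its 2029 exon bases, 1818 are shared in GENCODE M21 with Zfp652 on the same strand and 1708 with Abi3 on the opposite strand, so its counts rest on few bases of its own and its level is uncertain. The OPC libraries held 200, 272 and 245 counts in WT, 165, 207 and 341 in +/1013 and 139, 189 and 213 in 1013/1013, or 2.72, 4.42 and 5.13, 2.54, 4.02 and 4.83, and 1.93, 2.99 and 3.89 CPM. The SSC libraries held 2, 4 and 4 counts in WT, 3, 0 and 2 in +/1013 and 1 and 4 in 1013/1013, at or near the limit of 3 counts that a count of 0 allows. Every OPC library was above every SSC library. On the TMM scale the ratio of summed OPC to SSC counts was 76.3 in WT (95% exact interval 41.2 to 159.8), 128 in +/1013 (54.6 to 395) and 61.6 in 1013/1013 (26.2 to 190.5), intervals that cover counting error only. By library totals, with no TMM factors, the ratios were 44.95, 94.2 and 47.5. The difference was called in all 3 genotypes (adjusted p = 0.00132, 0.000598 and 0.00516). Without 1013/1013 SSC replicate 1 the last call was lost (adjusted p = 0.055), with a ratio of 38.2 (14.8 to 141).

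For the 2 genes of pyrophosphate supply no difference between cell types was called, and levels overlapped in WT. Enpp1 (ENSMUSG00000037370, minus strand, chr10:24637914-24712159) was at 214, 254 and 143 CPM in WT OPCs, 89.2, 208 and 227 CPM in +/1013 OPCs and 269, 251 and 275 CPM in 1013/1013 OPCs. In SSCs it was at 220.1, 207 and 178 CPM in WT, 136, 224 and 149.5 CPM in +/1013 and 34.0 and 222 CPM in 1013/1013. OPC and SSC libraries overlapped in WT and +/1013, and in 1013/1013 both SSC libraries lay below the 3 OPC libraries, as for 21.8% of genes. The log2 fold change of SSCs over OPCs was −0.01 ± 0.502 in WT (adjusted p = 0.997), an interval of 1 SE that spans less than 1.5-fold on either side. It was −0.04 ± 0.502 in +/1013 (adjusted p = 0.994) and −1.05 ± 0.58 in 1013/1013 (adjusted p = 0.246), the last −0.25 ± 0.458 without SSC replicate 1.

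Ank (ENSMUSG00000022265, plus strand, chr15:27466677-27594909) was at 255, 269 and 176 CPM in WT OPCs, 120.3, 271 and 195 CPM in +/1013 OPCs and 169.9, 346 and 156 CPM in 1013/1013 OPCs. The SSC values were 259.7, 178 and 162 CPM in WT, 133, 170 and 139 CPM in +/1013 and 52.8 and 285 CPM in 1013/1013. The cell types overlapped in each genotype. SSCs over OPCs gave a log2 fold change of −0.22 ± 0.493 in WT (adjusted p = 0.829), −0.41 ± 0.494 in +/1013 (adjusted p = 0.641) and −0.41 ± 0.557 in 1013/1013 (adjusted p = 0.656). The last turned to 0.35 ± 0.484 without SSC replicate 1.

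Of the 2 phosphate transporters, Slc20a1 was called between cell types in WT only and Slc20a2 in no genotype, in the fit of all 17 libraries. Slc20a1 (ENSMUSG00000027397, plus strand, chr2:129198764-129211616) was at 29.9, 17.7 and 15.9 CPM in WT OPCs, 14.7, 18.1 and 16.9 CPM in +/1013 OPCs and 33.4, 34.2 and 38.3 CPM in 1013/1013 OPCs. In SSCs it was at 137, 96.8 and 104 CPM in WT, 47.7, 79.5 and 33.9 CPM in +/1013 and 3.48 and 70.1 CPM in 1013/1013. The 3 WT SSC libraries were the highest of all 17, and SSCs lay above OPCs without overlap in WT and +/1013 but not in 1013/1013. Of all genes, 22.2% lay above without overlap in WT and 18.1% in +/1013. The log2 fold change of SSCs over OPCs was 2.41 ± 0.689 in WT, a 5.32-fold higher level (adjusted p = 0.0378). This call was lost without any 1 WT library except OPC replicate 1 (adjusted p = 0.0667 to 0.122), with values of 2.25 to 2.51. It was also lost with the replicate number as a block (2.41, adjusted p = 0.0524). The value was 1.70 ± 0.673 in +/1013, not called (adjusted p = 0.12), but called without 1013/1013 SSC replicate 1 (adjusted p = 0.00288), a library of neither group that enters the shared estimate of the spread. In 1013/1013 it was 0.06 ± 0.731 (adjusted p = 0.995), and 0.99 ± 0.404 (adjusted p = 0.208) without SSC replicate 1. Of its 5580 exon bases, 13.1% overlap genes on the opposite strand, and whether the counting used strand is not given in the sources used here.

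Slc20a2 (ENSMUSG00000037656, plus strand, chr8:22476788-22569612) was at 33.6, 19.0 and 51.6 CPM in WT OPCs, 38.6, 45.6 and 32.2 CPM in +/1013 OPCs and 26.9, 60.8 and 33.0 CPM in 1013/1013 OPCs. In SSCs it was at 23.9, 31.2 and 19.7 CPM in WT and 16.4, 15.7 and 23.8 CPM in +/1013. In 1013/1013 SSCs replicate 1 held 0 counts, which allows up to 0.055 CPM on this scale, and replicate 2 was at 19.9 CPM. OPCs were above SSCs without overlap in both mutant genotypes and overlapped them in WT. Of all genes, 17.1% lay this way in +/1013 and 21.8% in 1013/1013. Between the cell types the log2 fold change was −0.48 ± 1.05 in WT (adjusted p = 0.83), −1.06 ± 1.06 in +/1013 (adjusted p = 0.558) and −2.01 ± 1.27 in 1013/1013 (adjusted p = 0.301). Without SSC replicate 1 the last was −1.01 ± 0.557 (adjusted p = 0.376).

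Smpd3 (ENSMUSG00000031906, minus strand, chr8:106252548-106337988) had the largest difference between cell types after Phospho1. Its OPC levels were 694, 983 and 816 CPM in WT, 312, 982 and 1661 CPM in +/1013 and 1107, 611 and 2162 CPM in 1013/1013. Its SSC levels were 92.3, 78.7 and 44.7 CPM in WT, 31.8, 35.7 and 46.5 CPM in +/1013 and 43.4 and 16.4 CPM in 1013/1013. No OPC library overlapped an SSC library, and the mutant OPC groups were the most variable, from the lowest to the highest of all OPC values. The log2 fold change of SSCs over OPCs was −3.53 ± 0.614 in WT (11.6-fold lower, adjusted p = 0.00246), −4.70 ± 0.649 in +/1013 (adjusted p = 0.000354) and −5.44 ± 0.807 in 1013/1013 (adjusted p = 0.000729). These calls held without any 1 library of the groups compared. The chondrocyte markers were also lower in SSCs than in OPCs, and their part in the result was not tested.

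**Figure D2:**
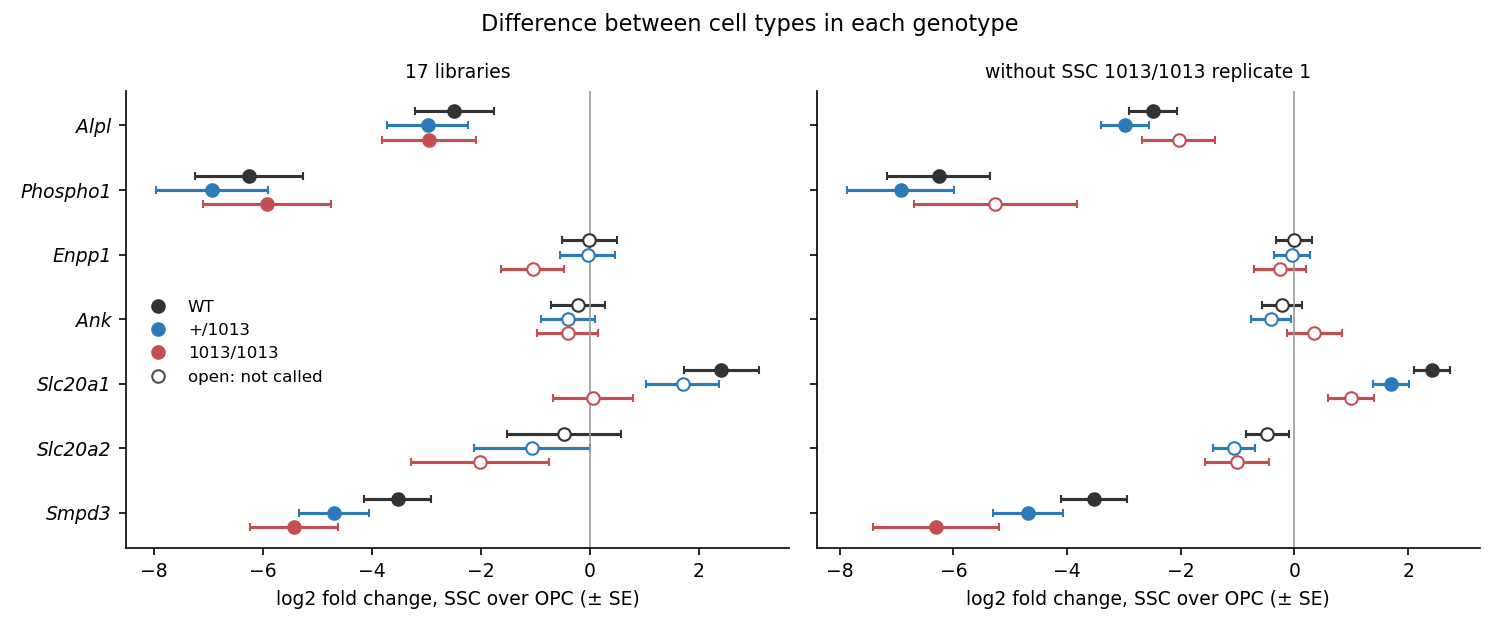
Log2 fold change of SSCs over OPCs for each member and genotype with its standard error, from all 17 libraries (left) and without 1013/1013 SSC replicate 1 (right); filled points were called. Alpl, Phospho1 and Smpd3 lie left of 0 in each genotype, Slc20a1 lies right of 0 in WT and +/1013, and the fitted Phospho1 values depend on the prior count because SSC libraries held 0 to 4 counts.

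Per kilobase of exon, on the CPM scale, the order of the members' levels differed between the cell types. In WT OPCs it ran from Alpl at 365 ± 81.5 CPM per kb (SD) through Smpd3 at 159 ± 27.7, Ank at 64.6 ± 14.0 and Enpp1 at 19.8 ± 5.47 to Slc20a2 at 5.59 ± 2.62 and Slc20a1 at 3.79 ± 1.37, and only the last 2 neighbours lay within their SDs. In WT SSCs it ran from Alpl at 65.0 ± 46.2 and Ank at 55.3 ± 14.6 through Slc20a1 at 20.2 ± 3.82, Enpp1 at 19.7 ± 2.08 and Smpd3 at 13.8 ± 4.68 to Slc20a2 at 4.02 ± 0.937. Alpl and Ank lay within their SDs there, as did Slc20a1, Enpp1 and Smpd3 with their neighbours. Phospho1 was left out because of its shared exons.

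Ratios within a library, from counts per kilobase, need no scaling between libraries. The ratio of Alpl to Enpp1, the enzyme that removes pyrophosphate against the one that makes it, was 14.4, 13.7 and 32.8 in the WT OPC libraries and 1.92, 5.87 and 2.05 in the WT SSC libraries. Over all genotypes it was 9.74 to 36.3 in OPCs and 1.43 to 5.87 in SSCs, without overlap. The ratio of Alpl to Ank was likewise 3.44 to 9.99 in OPCs and 0.325 to 2.41 in SSCs. The ratio of Slc20a1 to Slc20a2 went the other way, at 0.345 to 1.38 in OPCs and 1.59 to 6.38 in the 7 SSC libraries with Slc20a2 counts, so Slc20a2 was the higher per kilobase in 6 of 9 OPC libraries and Slc20a1 in all 7 SSC libraries. These are descriptions of RNA in each library, with no test.

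**Figure D3:**
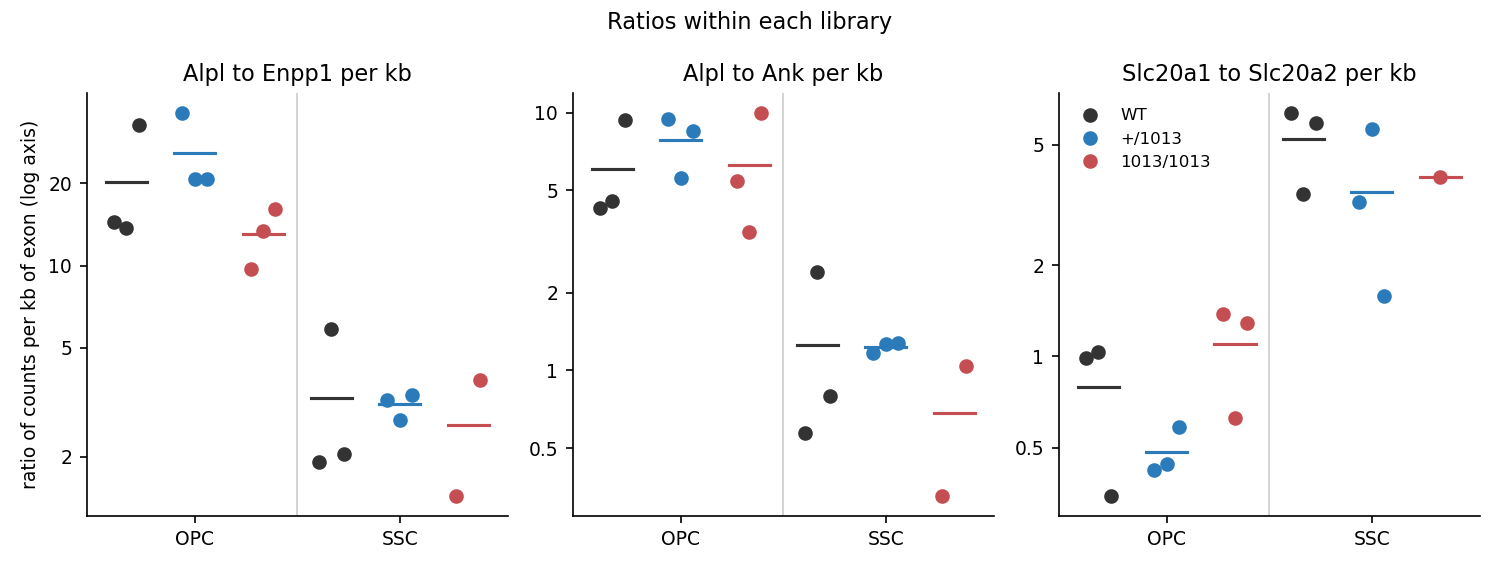
Ratio of counts per kilobase of exon within each library on a log axis, with 1 point per library and bars at group means. The OPC and SSC libraries do not overlap in any of the 3 ratios, with the first 2 higher in OPCs and the third higher in SSCs, and 1013/1013 SSC replicate 1 is absent from the third because it held 0 Slc20a2 counts.

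The 250 bases before the RefSeq start of 4 members (GRCm38.p6, the genome of mm10) are shown because these genes carry the 3 patterns: high in OPCs (Alpl and Phospho1), not called (Enpp1) and high in WT SSCs (Slc20a1). They were searched for TGTGGT, the core letters bound by RUNX2, the osteoblast transcription factor, on both strands (ACCACA on the other), with no second motif searched. Capitals mark a match. Sequences run 5′ to 3′ along the gene's strand, for Alpl chr4:137796385-137796634 (minus), Phospho1 chr11:95824250-95824499 (plus), Enpp1 chr10:24712160-24712409 (minus) and Slc20a1 chr2:129198523-129198772 (plus).
Alpl: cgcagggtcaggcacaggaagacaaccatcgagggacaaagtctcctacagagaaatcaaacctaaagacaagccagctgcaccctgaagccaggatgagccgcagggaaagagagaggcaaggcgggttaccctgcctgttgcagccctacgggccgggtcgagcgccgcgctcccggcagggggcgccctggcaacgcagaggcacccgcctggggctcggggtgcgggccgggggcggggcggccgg
Phospho1: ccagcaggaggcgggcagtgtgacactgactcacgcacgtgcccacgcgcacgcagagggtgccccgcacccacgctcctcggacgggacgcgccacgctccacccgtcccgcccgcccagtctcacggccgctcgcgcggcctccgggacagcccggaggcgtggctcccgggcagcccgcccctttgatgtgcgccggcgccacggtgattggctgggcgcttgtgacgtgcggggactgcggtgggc
Enpp1: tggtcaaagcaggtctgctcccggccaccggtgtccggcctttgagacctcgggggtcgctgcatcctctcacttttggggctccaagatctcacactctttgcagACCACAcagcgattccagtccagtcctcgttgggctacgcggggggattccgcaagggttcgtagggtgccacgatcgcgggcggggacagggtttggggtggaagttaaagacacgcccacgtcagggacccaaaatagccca
Slc20a1: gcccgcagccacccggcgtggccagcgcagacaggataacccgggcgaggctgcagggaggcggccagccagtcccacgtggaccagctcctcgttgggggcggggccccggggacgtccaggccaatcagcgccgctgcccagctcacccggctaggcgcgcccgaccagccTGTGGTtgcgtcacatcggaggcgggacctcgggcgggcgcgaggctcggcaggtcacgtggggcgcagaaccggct

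The RefSeq table held 7 windows of 300 bases for 5 members, 2 each for Alpl and Slc20a1. The letters were in 2 of the 7, in Enpp1 from base −144 and in the first Slc20a1 window from base −77 relative to the start, against 16.8% of all 32851 windows. The windows of Alpl, Phospho1 and Ank and the other Slc20a1 window did not hold them, which says nothing on RUNX2 at these genes. Slc20a2 and Smpd3 are named only. The share of G and C before the start was 68.4% in the Alpl window shown, 75.6% in Phospho1, 61.2% in Enpp1 and 75.2% in Slc20a1, with a median of 52.4% over all windows.

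Whether the 1013 allele changes these genes in OPCs was asked next. No member was called in +/1013 against WT (0% of 16207 genes tested were called), in 1013/1013 against WT (0.00617%), in 1013/1013 against +/1013 (0%) or in both mutant genotypes together against WT (0%). At an unadjusted p under 0.05, 0, 1, 1 and 0 of the 7 passed, where 2.04%, 3.38%, 3.17% and 2.33% of all genes did. Alpl, the most abundant per kilobase, was at 1472 ± 329 (SD, n = 3), 1606 ± 298 (SD, n = 3) and 1365 ± 354 (SD, n = 3) CPM in WT, +/1013 and 1013/1013. Its log2 fold change from WT was 0.12 ± 0.287 in +/1013 and −0.11 ± 0.287 in 1013/1013, less than the spread between replicates. Phospho1 (−0.12 ± 0.485 and −0.48 ± 0.486), Ank (−0.26 ± 0.392 and −0.07 ± 0.391) and Slc20a2 (0.15 ± 0.407 and 0.20 ± 0.407) also lay within or near 1 SE of 0.

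Slc20a1 was the 1 member whose 3 OPC 1013/1013 libraries (33.4 to 38.3 CPM) lay above all WT (15.9 to 29.9 CPM) and all +/1013 libraries (14.7 to 18.1 CPM), where 1.02% of genes did. Against WT, 1 of 7 members was higher without overlap, where 3.98% of genes were. Against +/1013, 2 of 7 were, Slc20a1 and Enpp1, where 3.54% of genes were. In +/1013 against WT no member was apart in either direction (2.82% of genes higher and 2.46% lower). The log2 fold change of Slc20a1 in 1013/1013 was 0.74 ± 0.256 over WT (unadjusted p = 0.0194, adjusted p = 1) and 1.10 ± 0.258 over +/1013 (unadjusted p = 0.00243, adjusted p = 0.999). DESeq2's Wald test called the second (adjusted p = 0.0377), as it did 0.364% of all genes, and no other member in an OPC comparison. In +/1013 OPCs the value was −0.36 ± 0.256 from WT.

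Enpp1 was at 204 ± 56.1 (SD, n = 3) CPM in WT OPCs, 175 ± 74.6 (SD, n = 3) CPM in +/1013 and 265 ± 12.3 (SD, n = 3) CPM in 1013/1013. In 1013/1013 its log2 fold change was 0.38 ± 0.354 over WT and 0.61 ± 0.354 over +/1013, neither called (adjusted p = 1 and 0.999). Smpd3 was at 831 ± 145 (SD, n = 3), 985 ± 675 (SD, n = 3) and 1293 ± 792 (SD, n = 3) CPM, and its 0.64 ± 0.617 in 1013/1013 was about the size of its SE. The chondrocyte markers summed to 15087 to 46978 CPM in WT OPCs, 12743 to 64606 in +/1013 and 32467 to 92280 in 1013/1013, with all 7 counted in every library, and their part in the values of Enpp1 and Smpd3 was not tested.

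Across the 9 OPC libraries of all 3 genotypes, the members varied along different lines. Alpl and Phospho1, the enzymes that release phosphate, varied together, and Enpp1 and Smpd3 moved with the chondrocyte markers. The 35 relations computed over the 9 OPC libraries, on log2 levels, were the 21 pairs of members and each member against the summed chondrocyte and osteoblast markers. Of these, 3 passed an adjusted p of 0.05 by Pearson's r and 4 by Spearman's rho, both tests two-sided. The tests permuted all 9 libraries across genotypes, and the values of r within genotypes have no test. Alpl and Phospho1 had r = 0.902 (exact permutation p = 0.00189, adjusted 0.0221) and rho = 0.9 (exact p = 0.00203, adjusted 0.0359). Without the 2 libraries farthest from the median of Alpl r was 0.838, and within genotypes, on deviations from the group means, it was 0.945. Phospho1 followed the osteoblast markers with r = 0.877 (exact permutation p = 0.00166, adjusted 0.0221) and rho = 0.883 (exact p = 0.00308, adjusted 0.0359), and with r = 0.64 without the farthest 2 and 0.845 within genotypes. These libraries share their scaling, and on CPM of library totals the 2 values of r were 0.725 and 0.781.

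Enpp1 followed the chondrocyte markers with r = 0.871 (exact permutation p = 0.000904, adjusted 0.0221) and rho = 0.867 (exact p = 0.00451, adjusted 0.0394). Its r was 0.845 without the farthest 2 libraries and 0.88 within genotypes. Smpd3 followed them with r = 0.813 (exact permutation p = 0.0075, adjusted 0.0657) and rho = 0.883 (exact p = 0.00308, adjusted 0.0359), past the threshold by rank only, with r = 0.772 without the farthest 2 and 0.814 within genotypes. On CPM of library totals the values of r were 0.886 and 0.813. The 3 libraries with the most chondrocyte RNA, 1013/1013 replicates 1 and 3 and +/1013 replicate 3 (92280, 77002 and 64606 CPM), held the 3 highest Smpd3 levels (1107, 2162 and 1661 CPM). Blood cell markers were high in WT OPC replicate 3 (19840 CPM) and 1013/1013 OPC replicate 2 (16687 CPM) and at most 989 CPM in the other 7 OPC libraries, and no relation to them was computed. For the other 31 relations neither adjusted p passed.

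**Figure D4:**
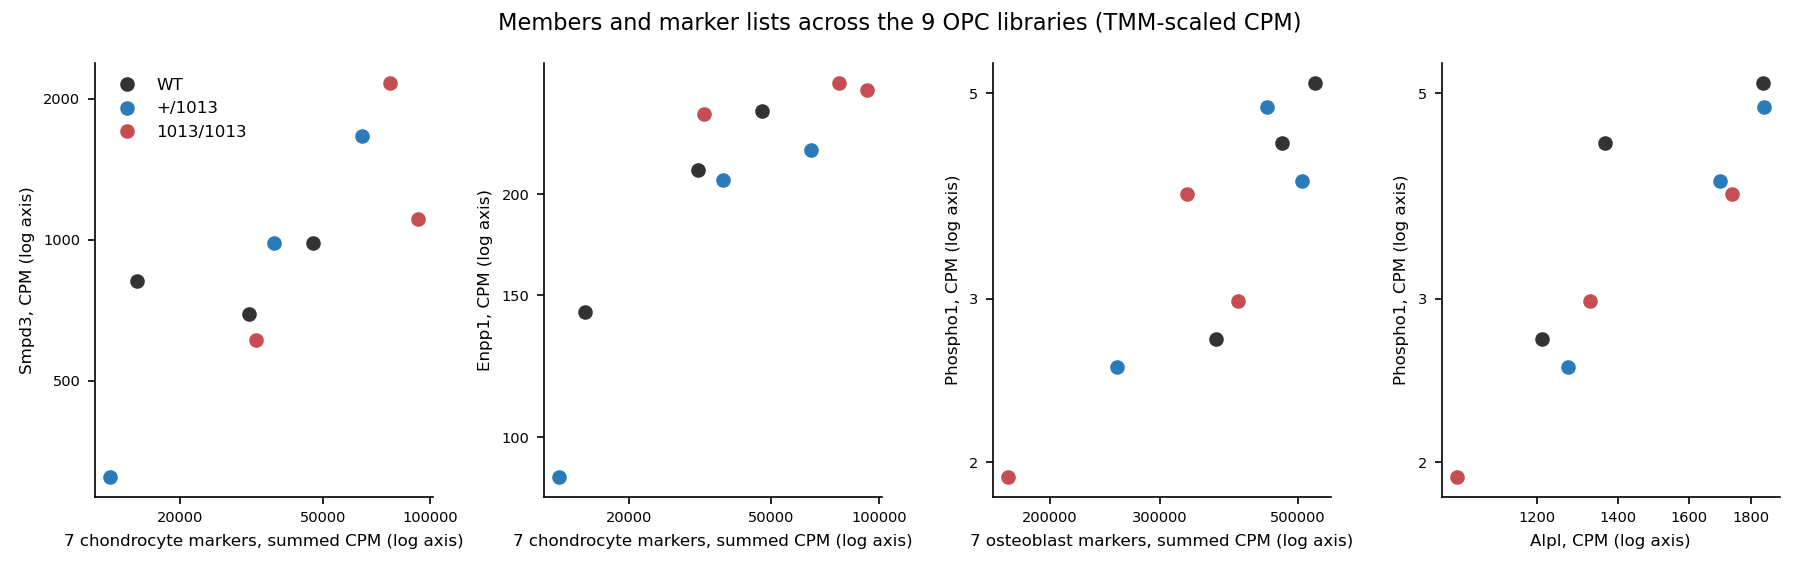
The 4 relations that passed an adjusted p of 0.05 by Pearson's r or Spearman's rho over the 9 OPC libraries, in TMM-scaled CPM on log axes, with 1 point per library coloured by genotype. Smpd3 and Enpp1 are higher in libraries with more chondrocyte marker RNA. Phospho1 is higher in libraries with more osteoblast marker RNA and more Alpl. The 3 genotypes are spread along each relation, except that the 1013/1013 libraries lie close together in Enpp1 (251 to 275 CPM).

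In SSCs, where the study asked whether the allele alters osteogenic specification, all 6 members tested had a lower fitted level in both mutant genotypes than in WT, and none was called. Phospho1 did not pass the filter on low counts there. The share of genes called was 0.0736% of 17659 in +/1013 against WT, 0% in 1013/1013 against WT, 0% in 1013/1013 against +/1013 and 0.849% in both mutant genotypes together against WT. At an unadjusted p under 0.05, 0, 1, 0 and 1 of the 6 passed, where 17.3%, 18.3%, 5.53% and 23.4% of all genes did, so the members' shares were near this background. The median log2 fold change of both mutants from WT was −0.69 over the 6 members and −0.24 over all genes. Without 1013/1013 SSC replicate 1 the members' median was −0.23 and that of all genes −0.29, 5 of the 6 were below WT, and no gene of 19775 was called. In 1013/1013 alone, 3 of the 6 were then above WT and 3 below. Other measures of the SSC libraries separated WT from the mutants without overlap: genes with a count (21449 to 22599 in WT and 15748 to 19227 in the mutants), counts outside genes (3.68% to 4.16% and 1.504% to 2.692%) and Ly6a (386 to 599 and 838 to 1450 CPM). All 14 blood cell markers had a lower fitted level in both mutants together than in WT (median log2 fold change −2.58, none called), with sums of 509 to 6887 CPM in WT and 153 to 936 CPM in the mutants. The part of these in the members' values was not tested.

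Slc20a1 was the 1 member with all 5 mutant SSC libraries (3.48 to 79.5 CPM) below the 3 WT libraries (96.8 to 137 CPM), where 10.9% of genes were. It stayed so without 1013/1013 replicate 1, as 13.2% of genes did. Its log2 fold change from WT was −1.09 ± 0.843 in +/1013 (adjusted p = 0.575), −1.63 ± 0.989 in 1013/1013 (adjusted p = 0.392) and −1.36 ± 0.739 in both together (adjusted p = 0.307). Without replicate 1 these were −1.09 ± 0.328 (adjusted p = 0.151), −0.70 ± 0.479 (0.594) and −0.90 ± 0.33 (0.21), so the direction held and no difference was called.

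Smpd3 was at 71.9 ± 24.5 (SD, n = 3) CPM in WT SSCs, 38.0 ± 7.66 (SD, n = 3) CPM in +/1013 and 29.9 ± 19.1 (SD, n = 2) CPM in 1013/1013. Its log2 fold change from WT was −0.94 ± 0.411 in +/1013 (adjusted p = 0.293), −1.24 ± 0.475 in 1013/1013 (adjusted p = 0.236) and −1.09 ± 0.361 in both together (adjusted p = 0.138), the smallest adjusted p of a member in an SSC genotype comparison. DESeq2's Wald test called the last (adjusted p = 0.0387), as it did 12.3% of all genes. Unlike for the other members, leaving out 1013/1013 replicate 1 widened the difference, to −2.15 ± 0.47 in 1013/1013 and −1.54 ± 0.302 in both (adjusted p = 0.28 and 0.0903). The chondrocyte markers summed to 662 to 4137 CPM in WT SSCs, 85.6 to 221 in +/1013 and 48.8 to 283 in 1013/1013, with all 7 counted in every WT library and 6 of 7 in every mutant library. The osteoblast markers summed to 16278 to 21380, 5547 to 10537 and 7340 to 11022 CPM. Both were lower in the mutants without overlap, and their part in the values of Smpd3 and Slc20a1 was not tested.

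For Alpl, 1 WT library decided the value: WT replicate 2 was at 477 CPM and the other 2 at 166 and 144 CPM, both below the +/1013 range of 173 to 239.7 CPM. Its log2 fold change from WT was −0.38 ± 0.866 in +/1013 (adjusted p = 0.893) and −0.59 ± 0.983 in 1013/1013 (adjusted p = 0.763). Without WT replicate 2 the first was 0.37, and without 1013/1013 replicate 1 the second was 0.33. Enpp1 (−0.27 ± 0.563 and −0.67 ± 0.641), Ank (−0.46 ± 0.517 and −0.25 ± 0.581) and Slc20a2 (−0.44 ± 1.37 and −1.34 ± 1.6) overlapped WT in +/1013. Without 1013/1013 replicate 1 the 1013/1013 values were 0.12, 0.50 and −0.34. With 1013/1013 replicate 2 left out instead, so that replicate 1 stood alone for its genotype, 5 of 6 members were called lower than WT, with log2 fold changes of −1.94 for Ank, −2.60 for Enpp1, −3.79 for Alpl, −5.04 for Slc20a1 and a value for Slc20a2 set by its 0 counts. In that fit 11.3% of all genes were called lower.

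The test of the difference between cell types in the genotype effect called no member, for +/1013 (0.0840% of 20238 genes called) or for 1013/1013 (0.153%). For 1013/1013 the largest value was that of Slc20a1, at −2.35 ± 1.01 on the log2 scale for the effect in SSCs minus that in OPCs (unadjusted p = 0.0359, adjusted p = 0.307), with all 3 OPC libraries above and both SSC libraries below the WT mean of their cell type. Without SSC replicate 1 it was −1.42 ± 0.543 (adjusted p = 0.611). Smpd3 was next at −1.91 ± 0.854 (adjusted p = 0.321), and the other 5 members were at −1.54 to 0.34 (adjusted p of 0.537 or more).

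**Figure D5:**
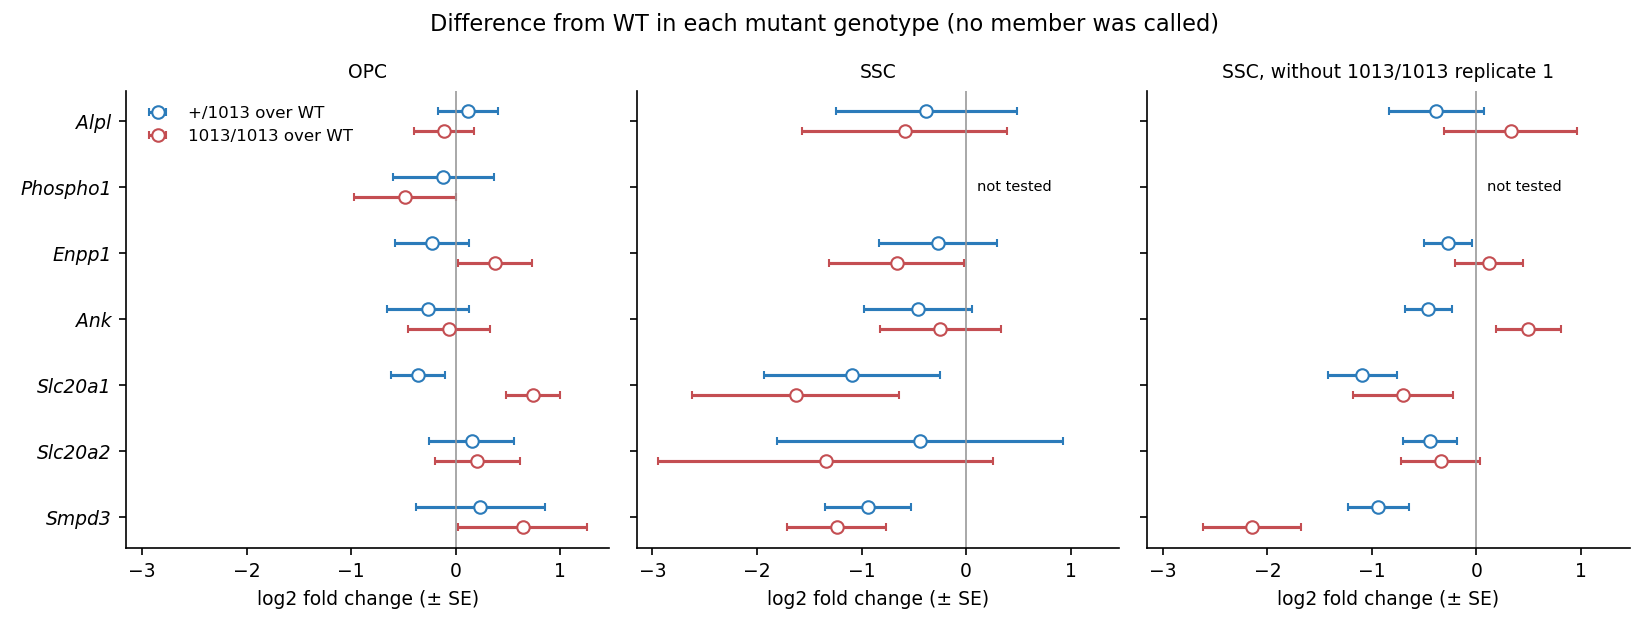
Log2 fold change from WT in +/1013 and 1013/1013, with standard errors, in OPCs (left), SSCs (middle) and SSCs without 1013/1013 replicate 1 (right); no member was called, and Phospho1 was not tested in SSCs. In OPCs the values lie between −0.48 and 0.74, and in SSCs the 1013/1013 values of Alpl, Enpp1 and Ank change sign when replicate 1 is left out.

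Other genes of the same processes, 44 in 5 lists, were measured beside the members. Of these, 38 were tested between cell types. In WT, 1 was called higher and 11 lower in SSCs (5.55% and 5.86% of all genes). In +/1013, 3 were called higher and 10 lower (6.44% and 6.02%), and in 1013/1013, 4 higher and 8 lower (6.94% and 6.12%). In WT their median log2 fold change was −0.38, against 0.17 over all genes. Without 1013/1013 SSC replicate 1 the counts were 3 and 12 in WT, 3 and 11 in +/1013 and 1 and 7 in 1013/1013. In those fits 11.7%, 13.1% and 4.84% of all genes were called in either direction. In no genotype comparison was any of these pathway genes called, of 35 tested in OPCs and 38 in SSCs. Of all genes, 0% to 0.00617% were called in the OPC comparisons and 0% to 0.849% in those of SSCs.

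Of the 9 genes of pyrophosphate and nucleotide handling, Enpp3, a nucleotide pyrophosphatase related to Enpp1, was at 2.81 ± 1.62 CPM in WT OPCs and 29.9 ± 5.88 CPM in WT SSCs (log2 fold change 3.41, adjusted p = 0.00257), the reverse of Alpl. Ppa1, a cytosolic pyrophosphatase, was at 745 ± 199.5 and 68.4 ± 38.5 CPM (−3.44, adjusted p = 0.00361). Panx3, a channel of the skeletal lineage, was at 172 ± 40.1 and 6.9 ± 8.84 CPM (−4.64, adjusted p = 0.0268). Both were called lower in SSCs in all 3 genotypes. Panx1, its relative, was called higher in SSCs in both mutant genotypes (1.48 in +/1013 and 1.66 in 1013/1013), and Ppa2, the mitochondrial pyrophosphatase, in 1013/1013 (0.71).

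Of the 9 genes of phosphate transport and its hormones, Phex, a protease of the osteocyte lineage that restrains FGF23, was at 142 ± 45.05 CPM in WT OPCs and 5.49 ± 1.86 CPM in WT SSCs (−4.69, adjusted p = 0.0137). Fam20c, the kinase that phosphorylates secreted matrix proteins, was at 311 ± 99.1 and 95.4 ± 24.1 CPM (−1.71, adjusted p = 0.00409), and both were called in all 3 genotypes. The kidney and gut transporters Slc34a1, Slc34a2 and Slc34a3 had 0 counts in all 17 libraries. The exporter Xpr1 was at 10.6 ± 3.97 and 15.9 ± 5.8 CPM and was not called. Galnt3, which glycosylates FGF23, was called in +/1013, at −3.76 there and −2.64 in WT.

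Of the 8 genes of phosphocholine and sphingomyelin, Enpp6, a choline-specific phosphodiesterase that can feed Phospho1, had the largest difference, with 235 ± 71.6 CPM in WT OPCs and 1.86 ± 0.973 CPM in WT SSCs (−6.98, adjusted p = 0.00204), and was called lower in all 3 genotypes. The other sphingomyelinases did not follow Smpd3: Smpd1 was at 119 ± 7.15 and 92.1 ± 20.5 CPM, Smpd2 at 34.2 ± 6.25 and 47.7 ± 8.66 CPM and Smpd4 at 19.6 ± 2.55 and 25.7 ± 1.7 CPM, none called in any genotype. Pcyt1a, of phosphatidylcholine synthesis, was called in 1013/1013 (−1.10).

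Of the 8 annexins and matrix proteins, 4 were called lower in WT SSCs (5.86% of all genes). In +/1013, 2 were (6.02%), and in 1013/1013, 1 was (6.12%). Those in WT were Dmp1 (543 ± 195 CPM in WT OPCs and 3.67 ± 3.7 CPM in WT SSCs), Mepe (46.2 ± 35.2 and 0.359 ± 0.382 CPM), Spp1 (14265 ± 3291 and 1948 ± 752 CPM), which encode acidic proteins of the mineralized matrix, and Anxa6 (−1.10). Anxa2 was called higher in SSCs in +/1013 (1.09) and 1013/1013 (0.80). Of the 10 alkaline phosphatase paralogs and maturation genes, the paralogs Akp3 and Alppl2 had 0 counts in every library and Alpi reached at most 0.0154 CPM, so nearly all alkaline phosphatase RNA counted was Alpl. The zinc transporters Slc30a5 and Slc30a6, which load zinc into alkaline phosphatase in the secretory pathway, were at 163 ± 34.9 and 60.2 ± 2.64 CPM (−1.44, adjusted p = 0.00436) and 42.1 ± 19.1 and 16.97 ± 3.7 CPM (−1.31, adjusted p = 0.0234), both called lower in WT SSCs. Pigo, of the lipid anchor that holds alkaline phosphatase to the membrane, was called in +/1013 (−1.50).

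The genes whose profile over the 6 groups was most like each member were sought among 8285 genes that averaged 10 CPM or more, by the root mean square difference of centred log2(CPM + 1) group means, given in parentheses. For Alpl they were Serpinh1, Inafm2 and Lifr (0.0838 to 0.12), of which Serpinh1 encodes the collagen chaperone HSP47. None is named for Phospho1, whose levels are so near the added 1 CPM that its profile is compressed. For Smpd3 they were Rhbdl2, Ncmap and Ucma (0.0949 to 0.188), and Ucma encodes a cartilage matrix protein. Slc20a1 had no gene as close: Zmiz1, Arhgef3 and Hbegf (0.201 to 0.295). For Enpp1 they were Adck1, Zfp715 and Scyl3 (0.0784 to 0.086), for Ank Ap2a1, Arf3 and Rfc5 (0.0415 to 0.0581) and for Slc20a2 Dhx34, Rnf114 and Elac2 (0.0362 to 0.0838). No test goes with these distances.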

How the data were processed

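Bulk RNA from sorted SSCs and OPCs was sequenced by the authors after SMART-Seq v4 amplification and Nextera XT tagmentation. The deposited files hold raw counts per gene, which the authors made with STAR on mm10 and HTSeq. The submitters' processing notes also name FastQC and DESeq2, and versions and the strand setting are not given in the sources used here. The counts of 55335 genes were matched to GENCODE M21 by ID (55154 genes). Rows that name no gene (no feature 1.15% to 4.16% of a library, ambiguous 1.87% to 3.93%, not unique 5.10% to 10.4%) were left out of library sizes.

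Counts were filtered (filterByExpr), scaled (TMM) and tested with edgeR 4.0.16 (glmQLFit, legacy, and glmQLFTest) in R 4.3.3. The genotype comparisons were fitted on the libraries of 1 cell type, and comparisons between cell types on all 17. P-values were adjusted by Benjamini-Hochberg over all genes tested, and a standard error is the log2 fold change divided by the square root of F. Alternatives were DESeq2 1.42.0, other filters and scalings, a replicate block and leaving out each library. The labels tie no replicate number to a batch. In 2 of 10 pairs of groups with 3 shared numbers, every same-numbered pair of libraries deviated together over all genes (r = 0.135 to 0.402 for WT OPCs with WT SSCs and 0.129 to 0.227 for +/1013 with 1013/1013 OPCs), which counts here as pairing. In the other 8 not every r was over 0.1. Differently numbered libraries also passed 0.1. Between cell types 4 of 24 same-numbered and 10 of 48 differently numbered pairs did. Within OPCs these were 6 of 9 and 5 of 18, and within SSCs 2 of 7 and 2 of 14. Over all groups together, a shared number thus did not set pairs apart between cell types. For WT OPCs with WT SSCs, the differently numbered pairs had r of −0.368 to 0.247, and the main fit used no pairing. The fits were also run on simulated counts with known changes, drawn with the same spread of each gene in all libraries. Those counts held no outlying library and no pairing, so that run says nothing on either. The text names the 7 members, the genes of 5 pathway lists and the 3 nearest profiles of 6 members. The members, lists and tests were chosen with earlier results of these data known. Promoters came from RefSeq (GRCm38.p6). Counting intervals are exact.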

Additional observations from a re-analysis of the deposited data

Results flagged for a closer look

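The 1013/1013 libraries lay on opposite sides of the WT mean of Slc20a1 in the 2 cell types. All 3 OPC libraries were above it and both SSC libraries below it. The difference was −2.35 on the log2 scale (SSC effect minus OPC effect). Neither effect was called within its cell type. Without overlap, 3.98% of genes lay above WT in 1013/1013 OPCs and 24.4% below WT in 1013/1013 SSCs. The test of the difference did not pass (edgeR adjusted p = 0.307), and without 1013/1013 SSC replicate 1 the value was −1.42 (adjusted p = 0.611). The 2 effects share no library. Groups held at most 3 libraries, so single libraries could not be tested as outliers.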

How the results depend on the processing

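Of 625 log2 fold changes recomputed under other filters, scalings, tools or designs, 611 kept their direction and their side of the threshold. Most of them were not called in the main fit, and staying uncalled counted as kept. On leaving out 1 library, 377 of 456 values kept both, 44 changed sign, 17 lost a call and 18 gained 1. DESeq2 called 1 member in 1013/1013 against +/1013 OPCs (Slc20a1) and 1 in both mutant genotypes against WT SSCs (Smpd3). With only the 2 groups compared in the fit, 5 members were called between cell types in +/1013 (18.1% of all genes) and 0 in 1013/1013 (3.14%). Values near 0 changed sign: Enpp1 in SSCs over OPCs of WT was 0.0019 without a filter and 0.0016 with at least 10 counts in every library, a filter under which Phospho1 could not be tested. With a replicate block, Smpd3 in +/1013 against WT OPCs was −0.015, Enpp1 in SSCs over OPCs of WT 0.020 and Slc20a1 in SSCs over OPCs of 1013/1013 −0.28, and Slc20a1 in SSCs over OPCs of WT was no longer called (2.41, adjusted p = 0.0524), the 1 member call that changed. The nearest profiles changed for 4 of 7 members with a pool of at least 1 CPM.

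The log2 fold changes that changed sign, and the counts that moved, on leaving out 1 library had these ranges. The range for +/1013 against WT in OPCs was −0.33 to 0.12 for Phospho1, −0.46 to 0.099 for Enpp1, −0.57 to 0.0018 for Ank, −0.14 to 0.56 for Slc20a2 and −0.37 to 0.67 for Smpd3. The range for 1013/1013 against WT in OPCs was −0.34 to 0.082 for Alpl, −0.53 to 0.13 for Ank and −0.22 to 0.61 for Slc20a2. The range for 1013/1013 against +/1013 in OPCs was −0.28 to 0.51 for Ank, −0.39 to 0.28 for Slc20a2 and −0.20 to 1.01 for Smpd3. The range for +/1013 against WT in SSCs was −0.67 to 0.37 for Alpl. The range for 1013/1013 against WT in SSCs was 0 to 5 members called, −3.79 to 0.33 for Alpl, −2.60 to 0.12 for Enpp1 and −1.94 to 0.50 for Ank. The range for 1013/1013 against +/1013 in SSCs was 0 to 5 members called. The range for both mutant genotypes against WT in SSCs was 0 to 5 members called, −2.09 to 0.26 for Alpl and −1.21 to 0.019 for Ank. The range for SSCs over OPCs in WT was 2 to 4 members called and −0.20 to 0.19 for Enpp1. The range for SSCs over OPCs in +/1013 was −0.37 to 0.18 for Enpp1. The range for SSCs over OPCs in 1013/1013 was 1 to 7 members called, −2.03 to 0.35 for Ank and −3.30 to 0.99 for Slc20a1. The range for the 1013/1013 effect in SSCs minus OPCs was 0 to 4 members called, −3.64 to 0.45 for Alpl, −0.89 to 0.99 for Phospho1 and −1.82 to 0.57 for Ank. In WT, 6.68% to 11.5% of all genes were called over these fits. The other highest counts came with 1013/1013 SSC replicate 2 left out, a fit that rests on replicate 1 alone for its genotype and assumes that it varies like the other groups. There 14.8% of all genes were called for 1013/1013 against WT in SSCs, 9.17% against +/1013, 16.2% for both mutant genotypes, 4036 of 22459 genes for SSCs over OPCs and 8.73% for the difference of effects. The lowest count in SSCs over OPCs of 1013/1013, 1 member, came without SSC replicate 1, with 4.84% of all genes. The alternatives that leave out 1013/1013 SSC replicate 1 from comparisons it is not part of were chosen after seeing the data. Values of Phospho1 in SSCs rest on 0 to 4 counts a library. The cause of the changes given here was not tested.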
